A study of Solanum lycopersicum with 17 samples.

Results

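A set of 109 tomato genes, of 34727 gene models measured, were at least 3 times higher in stage 1 than in stage 3 floral buds of both a male-sterile and a male-fertile line. The set was chosen from the measured values. Levels were taken as CPM, in which a gene's reads are scaled to its library's total. A gene entered the set when its stage 1 mean was at least 20 CPM and at least 3 times its stage 3 mean in both lines. No group mean of either line could exceed 4 times the highest mean of the other line. Identifiers from Solyc02g079190 to Solyc02g082190 were dropped together with 6 others: Solyc03g082420, Solyc03g115230, Solyc06g076520, Solyc06g076540, Solyc06g076560 and Solyc06g076570. The minimum at stage 1 was met by 8849 genes. Of these, 146 met the ratio in sterile buds, 292 in fertile buds and 116 in both. The limit between lines removed 3 of the 116 and the dropped identifiers 4. All 109 members passed the filter on low counts, as did 13568 of the 34727 genes.

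RNA sequencing libraries were made from total RNA of floral buds of the male-sterile line ms1035 and the male-fertile line T-1082. The sterile line had 3 biological replicates at each of stages 1, 2 and 3. The fertile line had replicates 2 and 3 at stage 1 and 3 replicates at stages 2 and 3, giving 9 sterile and 8 fertile libraries. The labels number the stages without defining them and do not give the origin of the lines, so they do not say how far the lines differ beyond the fertility trait. Libraries held 499608 to 817548 assigned reads, of which 98.7% to 99.5% were unique. The p-values below measure only the spread between these samples.

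A young floral bud consists largely of meristematic and newly formed organ cells, which divide and then stop dividing as sepals, petals, stamens and carpels expand and mature. Cell division runs on cyclins and the cyclin-dependent kinases they activate. Homeobox genes of the KNOX family maintain meristem cells, and auxin response factors (ARFs) switch genes on or off in answer to auxin, which positions new organs. In the anther the tapetum is the cell layer that feeds the developing pollen, and it is defective in many male-sterile lines.

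Summed over the members, the 3 sterile stage 1 libraries had 8793, 9188 and 6525 CPM, the stage 2 libraries 5637, 6806 and 3063 CPM, and the stage 3 libraries 1130, 2163 and 2854 CPM. In fertile buds the sums were 6278 and 8599 CPM at stage 1, 2719, 2043 and 3289 CPM at stage 2, and 1352, 1015 and 1144 CPM at stage 3. The group means were 8168 ± 1437, 5169 ± 1915 and 2049 ± 867 CPM in sterile buds (SD, n = 3 each) at stages 1, 2 and 3. In fertile buds they were 7438 ± 1641 (SD, n = 2), 2684 ± 624 and 1170 ± 170 CPM (SD, n = 3 each). The lines overlapped at stage 1 and, through sterile replicate 3, at stage 2. At stage 3 they overlapped through sterile replicate 1. These libraries are of whole buds, so fewer cells of a type and less RNA per cell cannot be told apart.

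The contrast of stages 1 and 3 chose the members, so its size is given as a description only. The ratio of the stage 1 to the stage 3 mean had a median of 3.75 in sterile buds (n = 109 genes) and 4.87 in fertile buds (n = 103 genes with stage 3 reads). The ratio was larger in fertile buds for 84 of the 109. The other 6 members had 0 reads in all 3 fertile stage 3 libraries, which allows a group mean of up to 1.61 CPM (3 reads over the group, counting error only). Every stage 1 library lay above every stage 3 library for 95 of the 109 members in sterile buds and for 109 of 109 in fertile buds. Fertile stage 1 had 2 libraries and sterile stage 1 had 3, so full separation was easier to reach in fertile buds. The same groups chose the members, and no share of all tested genes is set beside these counts. Among sterile libraries numbered 1, 2 and 3, stage 1 lay above stage 3 for 109, 99 and 98 members. Among the sterile stage 3 libraries, replicate 1 was the lowest for 83 of the 109.

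**Figure D1:**
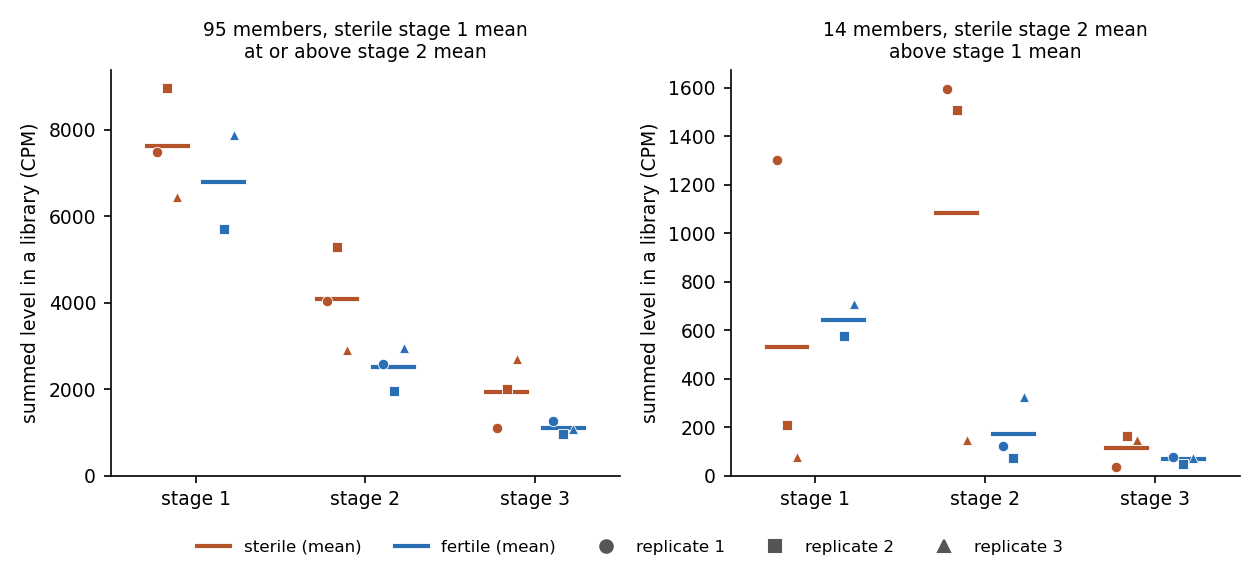
Summed level (CPM, linear axis from 0) of the members in each library by stage, sterile left of fertile, with the group mean as a line. Left, the 95 members whose sterile stage 1 mean was at or above the stage 2 mean, with sterile stage 2 replicate 3 at 2915 CPM, below fertile replicate 3 at 2965 CPM. Right, the 14 other members, for which sterile stage 1 replicate 1 and stage 2 replicates 1 and 2 stood at 1303, 1594 and 1510 CPM and the other 6 sterile libraries between 36.7 and 210 CPM.

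Neither the deposited tables nor RefSeq pairs these identifiers with gene names, so genes are given by identifier, without a role. Gene lists were assembled from identifiers recalled from the tomato literature, and which genes they hold could not be checked against an annotation. The list for the cell cycle held 2 members, Solyc04g082840 and Solyc11g005090. Solyc04g082840 had 183, 172 and 144 CPM in sterile stage 1 buds, 129, 131 and 65.6 CPM at stage 2, and 29.4, 45.8 and 84.3 CPM at stage 3. In fertile buds it had 74.7 and 60.4 CPM at stage 1, 41.5, 15.9 and 40.2 CPM at stage 2, and 23, 2.0 and 19 CPM at stage 3. All sterile libraries lay above all fertile libraries of the same stage. The log2 differences of sterile over fertile buds were 1.24 ± 0.49, 1.68 ± 0.46 and 1.76 ± 0.53 (SE), and none passed at the threshold of 0.05 (edgeR quasi-likelihood, adjusted p = 0.349, 0.0587 and 0.171).

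Solyc11g005090 had 71.6, 78.6 and 74.6 CPM in sterile buds at stage 1, against 25.3 and 35.2 CPM in fertile buds. At stage 2 it had 69.6, 71.5 and 18.2 CPM in sterile buds, against 23.4, 13.5 and 23 CPM in fertile buds. Stage 3 levels were 16.5, 25.9 and 23.8 CPM in sterile buds, against 10.2, 14 and 5.19 CPM in fertile buds. The lines overlapped only at stage 2, where sterile replicate 3 stood at the fertile level. Its log2 differences were 1.26 ± 0.41, 1.35 ± 0.38 and 1.15 ± 0.48 (SE; edgeR adjusted p = 0.197, 0.0665 and 0.369).

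The cell cycle list held 12 genes, of which 11 were tested and 2 were members. None of the 11 passed between the lines at any stage by edgeR, and 4, 4 and 5 had an unadjusted p under 0.05 at stages 1, 2 and 3, against 10.1%, 15.1% and 10.8% of all tested genes. DESeq2 called 0, 1 and 0 of them. Over all tested genes 0.0737%, 0.604% and 0.17% were called higher in sterile buds by edgeR at these stages and 1.09%, 2.23% and 0.568% lower. The medians of the log2 differences of the 11 were 0.97, 0.96 and 1.06, against medians of -0.00, 0.03 and 0.02 over all 13568 genes. The difference was negative for 1, 3 and 1 of the 11 at stages 1, 2 and 3. Solyc06g073610 stood at -0.62 ± 0.63 at stage 1 and Solyc04g078470 at -0.09 ± 0.33 at stage 2. Solyc08g080080 stood at -0.16 ± 0.35 and -0.72 ± 0.35 at stages 2 and 3. Solyc10g080950, also on the list, is no member, because its fertile stage 1 mean was 15.6 CPM. It differed by 1.39 ± 0.54, 1.64 ± 0.50 and 1.45 ± 0.70 (edgeR adjusted p = 0.325, 0.0905 and 0.473). Solyc10g074720 differed by 1.13 ± 0.55, 0.78 ± 0.55 and 1.93 ± 0.67 (edgeR adjusted p = 0.521, 0.586 and 0.244). Solyc08g066330 differed by 0.32 ± 0.46, -0.01 ± 0.44 and 0.72 ± 0.46 (edgeR adjusted p = 0.908, 0.997 and 0.610). From stage 1 to stage 3, 1 list gene rose in fertile buds by edgeR, where 3.45% of all tested genes did: Solyc08g080080 had a log2 change of 1.90 ± 0.43 there (edgeR adjusted p = 0.0169) and of 0.62 ± 0.38 in sterile buds (adjusted p = 0.441). No list gene was called higher at stage 3 in sterile buds by edgeR, where 1.43% of all tested genes did. By edgeR 1 list gene was called lower at stage 3 in each line, Solyc11g005090 in sterile and Solyc04g082840 in fertile buds, both members chosen by that contrast, in which 0.634% and 2.86% of all tested genes were called lower. DESeq2 called 3 list genes in sterile and 2 in fertile buds in either direction.

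The meristem list had 1 member of 21 genes, Solyc04g077210. Sterile libraries had 27.9, 44.6 and 37.3 CPM at stage 1, 15.3, 10.6 and 18.2 CPM at stage 2, and 5.5, 25.9 and 0 CPM at stage 3. Fertile libraries had 33.3 and 26.9 CPM at stage 1, 11.7, 7.34 and 10.1 CPM at stage 2, and 5.12, 6.0 and 3.46 CPM at stage 3. The lines overlapped at every stage, and 73.5% of the fall on the log2(CPM + 1) scale lay before stage 2 in sterile buds and 64.0% in fertile buds. No line difference passed, with log2 values of 0.23 ± 0.56, 0.54 ± 0.62 and 0.95 ± 0.78 (edgeR adjusted p = 0.960, 0.784 and 0.712). At stage 3 the sterile level rests on replicate 2: without it the log2 difference was -0.85.

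Of the 17 genes on the gibberellin and auxin list 1 was a member, Solyc04g081240. It had 173, 146 and 97.3 CPM in sterile stage 1 buds, 98.5, 83.4 and 41.9 CPM at stage 2, and 23.9, 59.7 and 50.9 CPM at stage 3. In fertile buds it had 160 and 77.2 CPM at stage 1, 104, 33.0 and 63.2 CPM at stage 2, and 38.4, 32 and 29.4 CPM at stage 3. The lines overlapped at all 3 stages. The log2 differences were 0.16 ± 0.43, 0.10 ± 0.40 and 0.39 ± 0.45 (edgeR adjusted p = 0.963, 0.959 and 0.823), and those of stages 1 and 2 turned negative in fits without some single libraries.

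Of the 8 genes on the cell wall and organ growth list 1 was a member, Solyc03g114940. It had 107, 159 and 94.1 CPM in sterile buds at stage 1, against 260 and 196 CPM in fertile buds. Its stage 2 levels were 40.7, 45.0 and 10.9 CPM in sterile buds, against 81.7, 11.0 and 97.6 CPM in fertile buds. Its stage 3 levels were 7.34, 15.9 and 28.6 CPM in sterile buds, against 5.12, 0 and 0 CPM in fertile buds. All sterile libraries were below the fertile ones at stage 1 and above them at stage 3. The log2 differences were -0.98 ± 0.59, -1.02 ± 0.61 and 2.94 ± 1.10, and none passed (edgeR adjusted p = 0.666, 0.486 and 0.289). The other 9 of the 13 gene lists held 0 members.

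**Figure D2:**
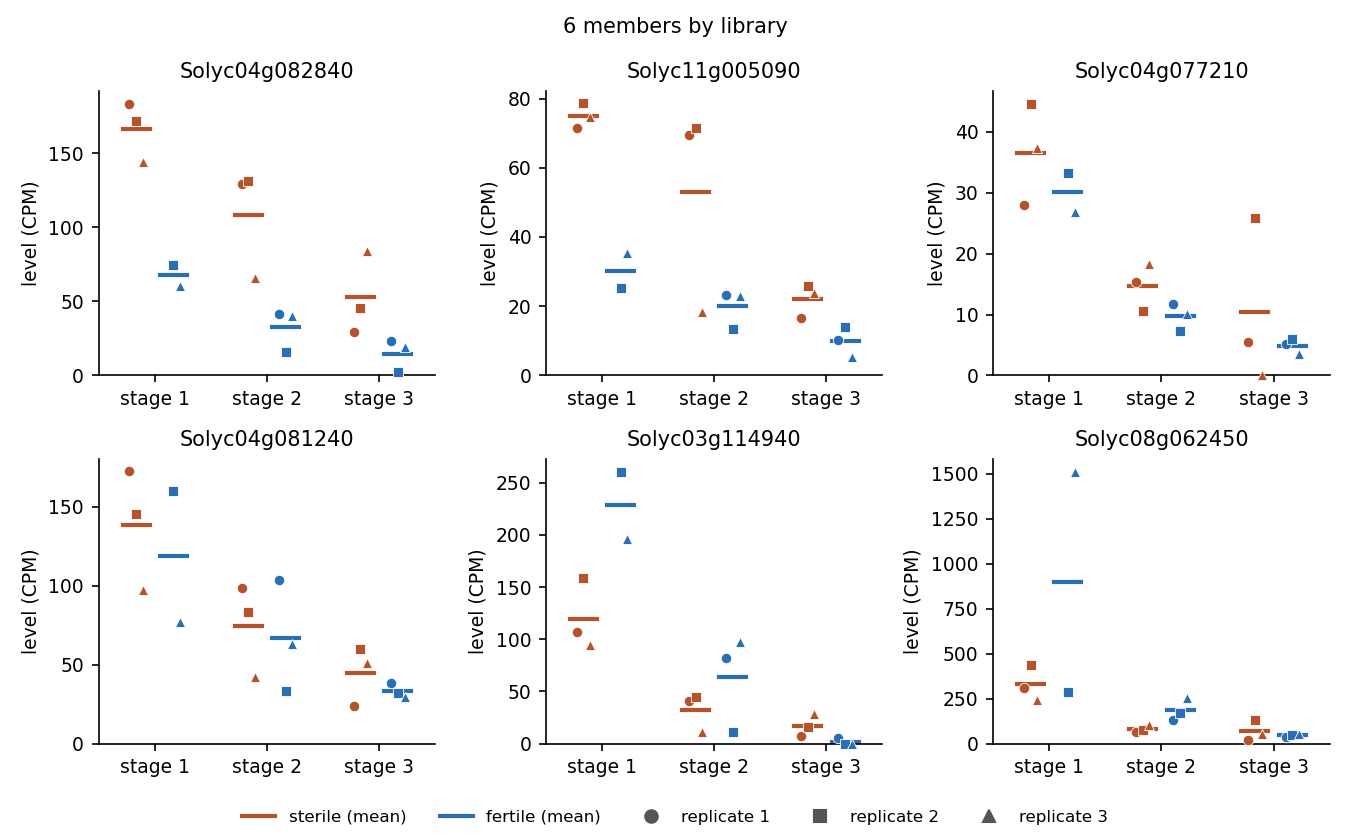
Level (CPM, linear axes from 0) of the 5 members on gene lists and of Solyc08g062450, the highest by RPKM, in each library by stage, sterile left of fertile, with group means as lines. Solyc04g082840 was higher in all sterile than in all fertile libraries of the same stage, Solyc04g077210 and Solyc04g081240 overlapped at each stage, and Solyc08g062450 reached 1509 CPM in fertile stage 1 replicate 3.

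Compared per length, as mean RPKM (reads scaled to coding length and to the library's total) over the 6 groups, the members ranged from 4.74 to 563, with a median of 22.3. The highest was Solyc08g062450. It had 311, 438 and 242 CPM in sterile stage 1 buds, against 288 and 1509 CPM in fertile ones. At stage 2 it had 62.8, 78.1 and 102 CPM in sterile buds, against 131, 172 and 254 CPM in fertile buds. Its stage 3 levels were 18.3, 131 and 55.6 CPM in sterile buds, against 37.1, 50 and 51.9 CPM in fertile buds. All sterile stage 2 libraries were lower than all fertile ones. The log2 differences were -1.51 ± 0.58, -1.23 ± 0.56 and 0.50 ± 0.60, and none passed (edgeR adjusted p = 0.322, 0.307 and 0.829). The fertile stage 1 level rests on replicate 3: without it the log2 difference of stage 1 was 0.19.

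Fertile stage 1 replicate 3 was over 2 times replicate 2 for 13 of the 109 members, and replicate 2 was over 2 times replicate 3 for 7. The widest gap was that of Solyc09g008970, with 66.7 CPM in replicate 2 and 463 CPM in replicate 3, chosen after its values were seen.

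After Solyc08g062450, the highest mean RPKM over the groups belonged to Solyc06g075850 (484), Solyc01g086820 (292) and Solyc03g113910 (217). Solyc06g075850 had mean RPKM of 905, 503 and 282 in sterile buds and 701, 309 and 206 in fertile buds at stages 1, 2 and 3. Solyc01g086820 had 462, 318 and 146 RPKM in sterile buds and 482, 214 and 128 RPKM in fertile buds. Solyc03g113910 had 329, 214 and 95.3 RPKM in sterile buds and 441, 169 and 52.3 RPKM in fertile buds. These were among the smaller genes, with coding lengths of 312, 411 and 441 bases, and their levels declined at each step in both lines. No line difference of these genes passed at any stage (edgeR adjusted p from 0.469 to 0.976).

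At the threshold, the members just inside were Solyc01g100030, whose smaller ratio of stage 1 to stage 3 was 3.00 in sterile buds, and Solyc04g051660, at 3.00 in fertile buds. Just outside were Solyc01g107730 and Solyc09g008860, both at 2.99 in sterile buds. Solyc01g107730 had stage 1 and stage 3 means of 57.4 and 19.2 CPM in sterile buds and of 39.5 and 4.19 CPM in fertile buds. Solyc09g008860 had 123 and 41.1 CPM in sterile buds and 72.2 and 11.7 CPM in fertile buds. With both lines summed, the ratio was largest for Solyc10g007860 (77.0) and Solyc03g093370 (31.0) and smallest for Solyc04g051660 (3.2) and Solyc02g090480 (3.21).

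The levels of Solyc10g007860 reached the counting limit at stage 3. It had 33.2, 95.7 and 16.2 CPM in sterile buds and 34.7 and 31.9 CPM in fertile buds at stage 1, and 2 reads in sterile buds and 0 reads in fertile buds at stage 3. Solyc03g093370 had 40.2, 40.6 and 4.87 CPM in sterile buds and 21.3 and 20.1 CPM in fertile buds at stage 1. At stage 2 it had 23.8, 33.1 and 0 CPM in sterile buds and 0 reads in all 3 fertile libraries. The sterile mean was 14.4 times a limit of 3 reads over the fertile group. That ratio allows for counting error of the fertile reads only and not for the sterile spread, in which replicate 3 stood at 0 as the fertile libraries did. The line difference at stage 2 did not pass (edgeR adjusted p = 0.0646).

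Between the lines, members were mostly higher in sterile buds at stages 2 and 3, and 6 passed, all at stage 2. The rule did not choose on this difference as such. At stages 1 and 3, however, the difference is formed from group means that the rule used in both lines. The shares of all tested genes set beside the members carry no such choice. The limit of 4 times set each group mean against the highest mean of the other line, whatever the stage, and so set no bound on the difference at stages 2 and 3. Where stage 1 held the highest mean of a line, the limit did bound the difference at stage 1. The median log2 difference of sterile over fertile buds was 0.23, 0.88 and 0.79 at stages 1, 2 and 3. It was positive for 76, 97 and 91 of the 109, against 49.5%, 52.7% and 52.2% of all tested genes. With the members that had 0 fertile reads set to the value given by a limit of 3 fertile reads, the stage 2 median was again 0.88 (1 such member). The stage 3 median was then 0.77 (6 such members, of which 2 had at most 3 sterile reads). Only 4 members were lower in sterile buds at all 3 stages, and 65 were higher at all 3.

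At stage 1, 0 members passed by edgeR and 1 by DESeq2, and 15 had an unadjusted p under 0.05, where 10.1% of all tested genes did. At stage 2, 6 members were called higher in sterile buds by edgeR, where 0.604% of all tested genes were, and 0 lower, where 2.23% were. DESeq2 called 10 members at that stage, all higher, where it called 0.723% of the genes it tested higher and 2.82% lower. In edgeR 49 members had an unadjusted p under 0.05, where 15.1% of all tested genes did. At stage 3, 0 members passed by edgeR and 1 by DESeq2, and 26 had an unadjusted p under 0.05, against 10.8% of all tested genes. The DESeq2 calls at stages 1 and 3 were higher in sterile buds, where DESeq2 called 0.177% and 0.288% of all genes higher and 1.55% and 1.03% lower. All sterile libraries lay above all fertile ones for 30 members at stage 1 (14.2% of all tested genes), 30 at stage 2 (8.63%) and 25 at stage 3 (6.63%). All sterile libraries lay below all fertile ones for 3, 1 and 0 members (12.4%, 8.65% and 7.65% of all tested genes).

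The stage 2 count rests on few libraries. Without sterile replicate 3 of stage 2, the lowest of its group for 76 of the 109 members, 16 passed in edgeR. Without sterile replicate 2 of that stage 1 passed, and without fertile replicate 1 or replicate 2 of that stage 2 passed. Without sterile stage 1 replicate 1, or sterile stage 3 replicate 3, 11 passed. Without all libraries numbered 3, 21 passed at stage 2, and the medians of the 3 stages were 0.45, 1.10 and 0.49. In the same fits the difference was positive for 92, 99 and 74 members. Over all tested genes, 82 were called higher in sterile buds at stage 2 in the main fit and 82 without sterile stage 2 replicate 3. The count was 52 without sterile stage 2 replicate 2, and 36 and 21 without fertile stage 2 replicates 1 and 2. It was 84 without sterile stage 1 replicate 1, 92 without sterile stage 3 replicate 3 and 99 without all libraries numbered 3. These fits tested 13425 to 15105 genes.

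**Figure D3:**
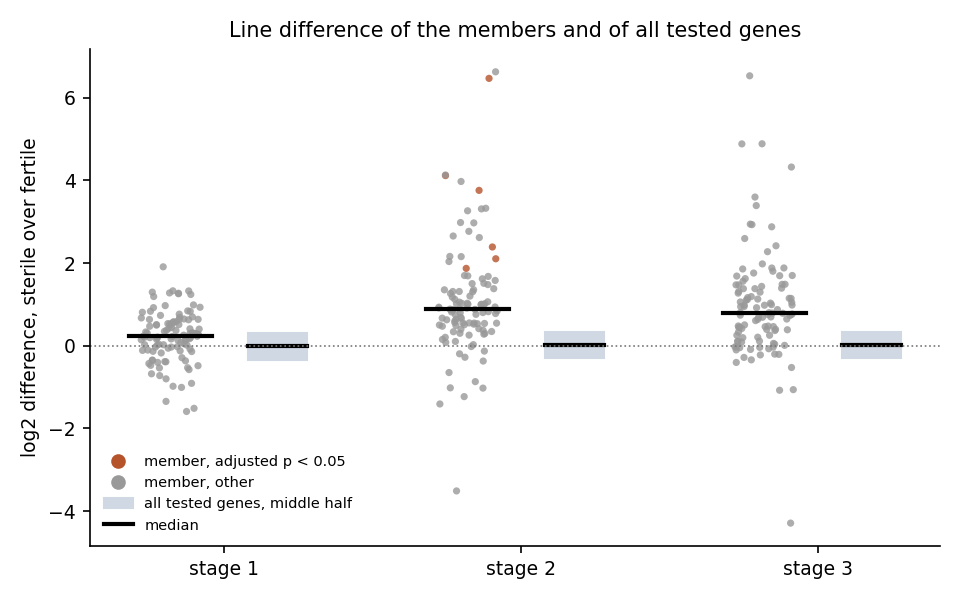
Log2 difference of sterile over fertile buds at each stage for the 109 members (points, with those past the edgeR threshold coloured) beside all 13568 tested genes (box from the lower to the upper quartile), with medians as lines. The member medians were 0.23, 0.88 and 0.79, and the 6 coloured points stand at stage 2. The 2 uppermost points of stage 2 belong to members with 0 and 3 fertile reads, and the 4 uppermost of stage 3 to members with 0.

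Of the 6 members that passed at stage 2, Solyc01g068040 was the most stable. It had 61.1, 46.3 and 21.9 CPM in sterile buds, against 0, 1.22 and 5.74 CPM in fertile buds. The lowest sterile library lay above the highest fertile one. The log2 difference was 4.12 ± 0.69 (edgeR adjusted p = 0.00284), and it passed in all 23 alternative fits (adjusted p from 1.4e-05 to 0.0191). At stage 1 the same gene had 48.9, 45.9 and 13 CPM in sterile buds, against 34.7 and 38.6 CPM in fertile buds, a log2 difference of -0.08 ± 0.54 (edgeR adjusted p = 0.995). At stage 3 it had 3.67, 7.96 and 6.36 CPM in sterile buds, against 2.56, 0 and 3.46 CPM in fertile buds.

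Solyc10g051090 had the largest fitted difference of the 6. At stage 2 it had 214, 197 and 12.8 CPM in sterile buds, against 0, 1.22 and 2.87 CPM in fertile buds. The summed reads were 282 in sterile and 3 in fertile buds, a ratio of 113 after scaling by depth (exact 95% binomial interval 38.4 to 553, counting error only). The fitted log2 value was 6.47 ± 1.63 (edgeR adjusted p = 0.0450), and the call was lost in 7 of 23 alternatives (adjusted p from 0.000113 to 0.161). At stage 1 it had 189, 6.55 and 1.62 CPM in sterile buds, against 68.0 and 92.3 CPM in fertile buds, so the sterile libraries lay on both sides of the fertile ones.

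The other 4 that passed were described after their values had been seen. Solyc06g073750 had 110, 295 and 40.1 CPM in sterile buds at stage 2, against 10.4, 4.89 and 15.8 CPM in fertile buds. The log2 difference was 3.76 ± 0.83 (edgeR adjusted p = 0.0190, and 5.46e-05 to 0.111 over the alternatives). At stage 1 its order differed, with 154, 351 and 82.7 CPM in sterile buds and 297 and 183 CPM in fertile buds. Its stage 3 levels were 3.67, 17.9 and 58.8 CPM in sterile buds, against 5.12, 0 and 0 CPM in fertile buds. Its fertile ratio of stage 1 to stage 3, 141, was the largest of the members with fertile stage 3 reads.

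Solyc06g072810, Solyc09g075550 and Solyc03g120360 were higher in all sterile than in all fertile libraries of stages 1 and 2. At stage 2 Solyc06g072810 had 44.1, 71.5 and 31.0 CPM in sterile buds, against 15.6, 9.79 and 7.18 CPM in fertile buds, a log2 difference of 2.11 ± 0.40 (edgeR adjusted p = 0.00754). Solyc09g075550 had 74.7, 105 and 38.3 CPM in sterile buds, against 22.1, 13.5 and 21.5 CPM in fertile buds, a log2 difference of 1.87 ± 0.43 (edgeR adjusted p = 0.0249). It was also the member with the lowest adjusted p at stage 1 (1.91 ± 0.47, edgeR adjusted p = 0.0562). Solyc03g120360 had 13.6, 38.4 and 36.4 CPM in sterile buds, against 1.30, 2.45 and 12.9 CPM in fertile buds, a log2 difference of 2.39 ± 0.62 (edgeR adjusted p = 0.0457). The calls of these 3 were lost in 1, 4 and 10 of 23 alternatives. A further 11 members had an edgeR adjusted p from 0.05 to 0.10 at stage 2, all higher in sterile buds. No share of all tested genes is set beside this count, which is a description only.

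The 12 members with a negative difference at stage 2 included Solyc08g062450, Solyc03g114940 and Solyc09g008970, and none of them passed. The lowest value was that of Solyc03g006360, chosen after its values were seen. At stage 2 it had 3.39, 6.62 and 5.47 CPM in sterile buds, against 35.0, 142 and 4.31 CPM in fertile buds. At stage 3 it had 3.67, 0 and 1.59 CPM in sterile buds, against 10.2, 108 and 3.46 CPM in fertile buds. Fertile replicate 2 was the high library at both stages. The log2 differences were -3.51 ± 1.22 and -4.29 ± 1.60 (edgeR adjusted p = 0.145 and 0.290). Its sterile ratio of stage 1 to stage 3, 61.0, was the largest among the members.

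The list of tapetum and pollen markers moved with the same contrast. Summed over the 10 markers, sterile libraries had 0 to 33.2 CPM and fertile libraries 791 to 13545 CPM. Of the 10, 6, 3 and 5 had 0 reads in all sterile libraries of stages 1, 2 and 3. Of the 9 tested markers, 5, 5 and 2 were called lower in sterile buds at these stages by edgeR. Over all tested genes 1.09%, 2.23% and 0.568% were called lower. The log2 difference was negative for 9, 9 and 8 of the 9 markers, and 9, 9 and 4 had an unadjusted p under 0.05 in edgeR. The 125 genes that the mirrored rule finds to rise with stage in both lines had medians of -0.22, -0.29 and -0.47 for the line difference, negative for 77, 72 and 88 of them. Their summed levels in sterile buds were 41827, 10464 and 43816 CPM at stage 2 and 83937, 31815 and 54993 CPM at stage 3. In fertile buds they were 41286, 29151 and 28636 CPM at stage 2 and 60974, 62347 and 60372 CPM at stage 3. Sterile replicate 2 of stage 2, the highest of its group for the falling genes, was thus the lowest of its group for the rising genes. The part of these quantities in the line difference was not tested.

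Stage 2, which the rule used only in the limit between lines, lay nearer to stage 3 in fertile than in sterile buds for most members. On the log2(CPM + 1) scale, the median share of the fall completed by stage 2 was 43.2% in sterile buds (quartiles 27.8% and 54.7%) and 55.6% in fertile buds (quartiles 43.0% and 66.9%). The share was over 50% for 38 members in sterile buds and for 65 in fertile buds. Group means declined at both steps for 95 members in sterile buds and 103 in fertile buds. The gap between the lines rests on few libraries. On the fitted log2 scale, the median position of the members relative to the midpoint of stages 1 and 3 was 0.15 in sterile and -0.11 in fertile buds, and the median of the difference between the lines was 0.24. Without sterile stage 2 replicate 2 the sterile median was -0.03 and that of the difference 0.13. Without fertile stage 2 replicate 2 the fertile median was 0.07 and that of the difference 0.09. The median of the difference was 0.12 without sterile stage 3 replicate 1, 0.13 without fertile stage 1 replicate 3 and 0.14 without fertile stage 3 replicate 1, where the fertile median was 0.08. It was 0.44 without sterile stage 3 replicate 3 and 0.39 without fertile stage 2 replicate 3. Over all fits without 1 library it was 0.09 to 0.44, positive for 60 to 87 of the 109 members.

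No member stood off the log midpoint of stages 1 and 3 at stage 2 by edgeR or by DESeq2 in either line, where edgeR called 0.0147% of all tested genes above it in fertile buds and 0 in sterile buds. At an unadjusted p under 0.05 in edgeR there were 15 members in sterile buds (2.93% of all tested genes) and 5 in fertile buds (3.96%). The midpoint is formed from the stage 1 and stage 3 means on which the rule chose. The minimum of 20 CPM favours genes whose stage 1 mean came out high. The ratio of 3 favours these too, and genes whose stage 3 mean came out low. The shares over all tested genes carry no such choice, so the members' counts beside them are a description. The difference between the lines in this contrast, a test added after the data were seen, gave 0 members by edgeR and by DESeq2 and 5 members at an unadjusted p under 0.05 in edgeR (2.48% of all tested genes). Of single genes, Solyc01g068040 stood at 1.55 ± 0.46 relative to the midpoint in sterile buds and at -1.92 ± 0.87 in fertile buds on the log2 scale, a difference between the lines of 3.47 ± 0.99, and neither value nor their difference passed (edgeR adjusted p = 0.877 in sterile buds and 1.00 for the others).

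**Figure D4:**
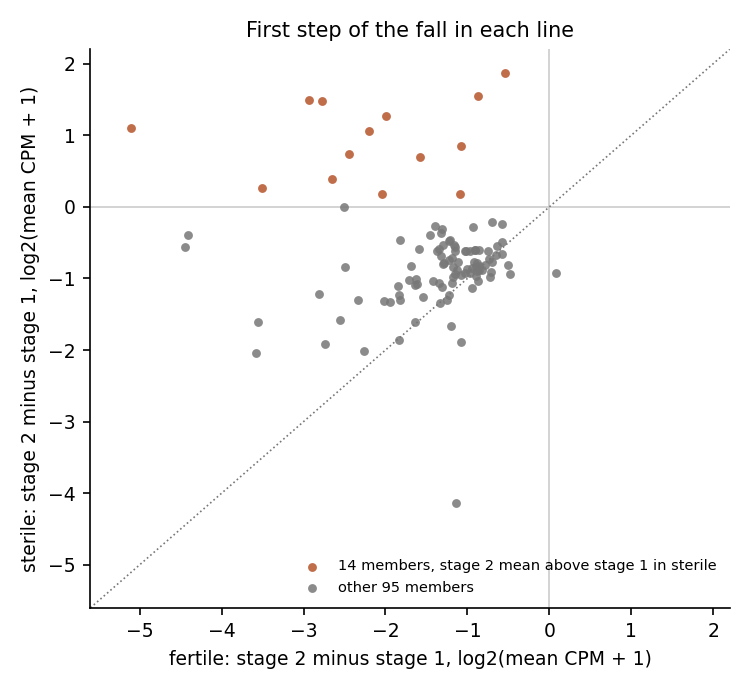
Change in group mean between stage 1 and stage 2 on the log2(CPM + 1) scale for each of the 109 members, sterile buds on the vertical and fertile buds on the horizontal axis; the dotted line marks equal changes. The 14 coloured members lie above 0 for sterile and below 0 for fertile buds, and 1 member, Solyc12g056600, lies above 0 for fertile buds.

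The 14 members whose sterile stage 2 mean exceeded the stage 1 mean, picked from these values and therefore not tested as a group, shared a pattern across sterile libraries. Their median level in sterile buds was 76.9, 8.52 and 3.24 CPM in stage 1 replicates 1, 2 and 3, then 101, 76.1 and 10.9 CPM at stage 2 and 1.83, 11.9 and 8.74 CPM at stage 3. In fertile buds it was 33.3 and 45.3 CPM at stage 1, 6.49, 3.67 and 10.1 CPM at stage 2, and 4.48, 0 and 2.60 CPM at stage 3. Replicate 1 was the highest sterile stage 1 library for 14 of the 14, and for 31 of the other 95 members. Of the 14, 10 fell below 5 CPM in a sterile stage 1 library. The sterile stage 1 means by which the 14 entered the set thus rested largely on replicate 1. Without that library the rule found 103 genes, of which 88 were among the 109 members. At sterile stage 2, replicates 1 and 2 were above replicate 3 for 14 of the 14, and for 62 of the other 95.

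At sterile stage 1, members of the 14 differed among libraries more than the others did. The same libraries served to pick the 14, so this gap is a description and not a separate trait of these genes. Their coefficient of variation at sterile stage 1 had a median of 142%, and that of the other 95 members 27.2%. Solyc09g008620 had 201, 22.3 and 1.62 CPM in sterile buds at stage 1 and 236, 224 and 10.9 CPM at stage 2. Its fertile levels were 74.7 and 68.8 CPM at stage 1 and 7.78, 3.67 and 33.0 CPM at stage 2. Solyc06g062690 had 85.6, 2.62 and 0 CPM at stage 1 and 183, 135 and 10.9 CPM at stage 2 in sterile buds, against 32 and 77.2 CPM and 24.7, 22.0 and 64.6 CPM in fertile buds. Both genes were chosen for this description after their values were seen.

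Within sterile libraries of the same number, stage 2 lay above stage 1 for 9, 14 and 11 of the 14 in numbers 1, 2 and 3. The median line difference of the 14 was -0.42, 2.88 and 1.19 at stages 1, 2 and 3, and was positive for 2, 14 and 11 of them. The 14 were chosen by a rise from stage 1 to stage 2 in sterile buds, and all 14 fell in fertile buds. A higher line difference at stage 2 than at stage 1 thus follows from the choice, and these values are a description only. Without the 14, the other 95 members had medians of 0.30, 0.80 and 0.79 and were positive for 74, 83 and 80. Of the 14, Solyc01g068040 and Solyc10g051090 were among the 6 that passed at stage 2. Solyc12g056600 was the 1 member whose stage 2 mean exceeded the stage 1 mean in fertile buds, where it had 26.7 and 36.9 CPM at stage 1 and 74.0, 19.6 and 7.18 CPM at stage 2, through replicate 1 only.

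**Figure D5:**
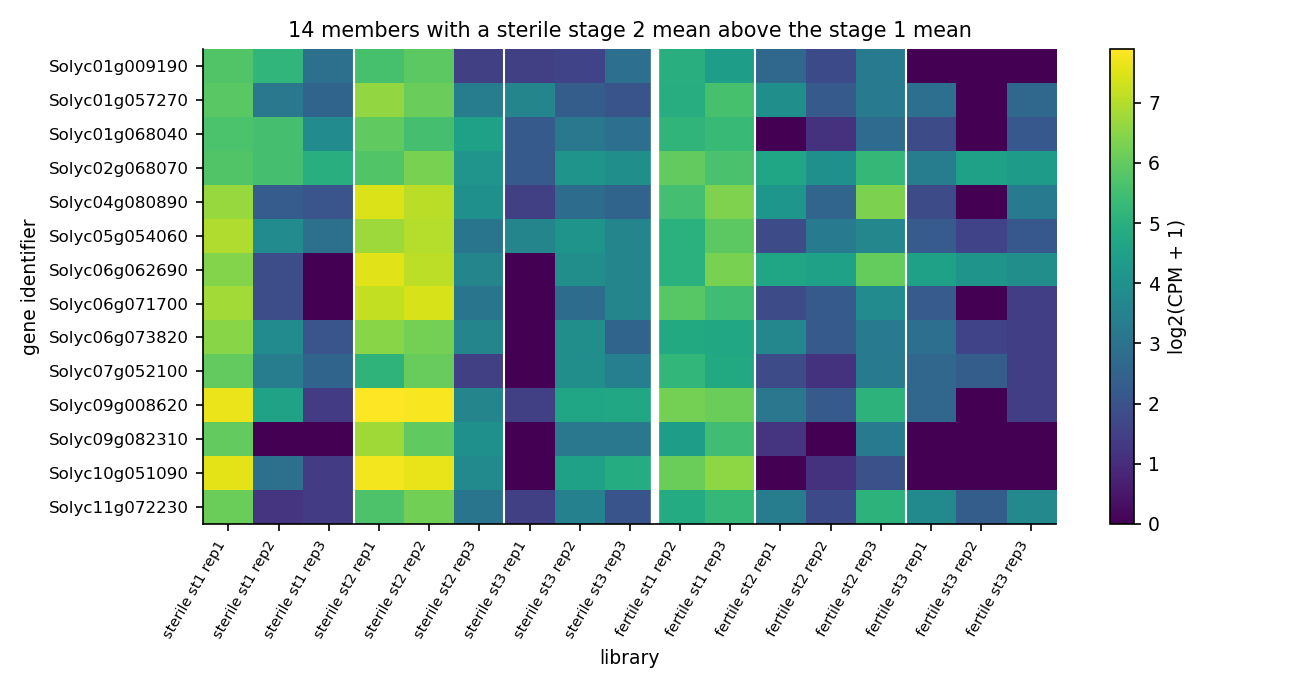
Level, as log2(CPM + 1), of the 14 members with a sterile stage 2 mean above the stage 1 mean in each of the 17 libraries, sterile left of fertile and stages in order. Sterile stage 1 replicate 1 and stage 2 replicates 1 and 2 lie above sterile stage 2 replicate 3 in all rows. Their medians were 76.9, 101 and 76.1 CPM, against 10.9 CPM. Fertile stage 1 replicates 2 and 3 had medians of 33.3 and 45.3 CPM.

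The members were compared with all tested genes in coding length, which the rule did not use directly. Levels in CPM are not scaled to length, so the minimum of 20 CPM at stage 1 in both lines can favour longer genes. Its part in the lengths below was not tested. Coding lengths ran from 312 to 4437 bases with a median of 1323, against 1245 over the 13568 tested genes, and 11.0% of the members were longer than 3000 bases, against 6.56% of tested genes. The most frequent length among the members, 411 bases, was shared by 4 of them, Solyc01g073970, Solyc01g080600, Solyc01g086820 and Solyc09g008970, and by 0.206% of tested genes. The next most frequent length was shared by 2 members. The length of 411 bases was picked for its count among the members, so its share of tested genes is no test of an excess. Every read of these 4 was counted as unique in the deposited tables. The lowest unique share among the members was 80.6%, for Solyc06g076210, and the other 108 had only unique reads.

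Of the 4 genes with 411 bases, Solyc01g073970 had 69.9, 132 and 141 CPM in sterile buds at stage 1, against 49.3 and 63.8 CPM in fertile buds. At stage 3 it had 22.0, 21.9 and 57.2 CPM in sterile buds, against 15.3, 20 and 20.8 CPM in fertile buds. Solyc01g080600 had 108, 174 and 162 CPM in sterile buds at stage 1, against 61.3 and 131 CPM in fertile buds. At stage 1 all sterile libraries lay above the fertile ones for Solyc01g073970 and overlapped them for the other 3. No line difference of the 4 passed at any stage.

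By the chromosome number in their identifiers, chromosomes 1 and 4 held 15 members each, 0.842% and 1.31% of the genes tested there, and chromosome 5 held 2, 0.227%. Over all chromosomes the members were 109 of 13568 tested genes. The identifiers dropped by the rule lie on chromosomes 2, 3 and 6, so the counts there are not free of the rule. The other 9 chromosomes held 4 to 13 members. Reads were found in all 17 libraries for 75 members, and 7 members had no reads in more than 2 libraries.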

How the data were processed

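Floral buds of sterile and fertile tomato were sequenced in 17 libraries. The deposited tables hold, per the file headers, whole counts of all and of unique reads for each gene model, RPKM (reads scaled by length and library total, by the authors) and the other value, gene length in bases. Lengths are coding lengths, since 34726 of the 34727 are multiples of 3. Not given in the sources used here: aligner, counting program and strandedness. As for the build, SL2.40 appears only within 2 gene model names. The test on all reads per gene was that of edgeR 4.0.16 (R 4.3.3): filterByExpr left 13568 genes and at least 97.0% of reads, TMM factors were 0.901 to 1.09, and 1 quasi-likelihood fit with 6 groups had 11 residual degrees of freedom and a biological coefficient of variation of 0.291. Calls were made at a Benjamini-Hochberg adjusted p under 0.05 over all tested genes. The SE was derived from the log2 value and the F statistic. Contrasts were the line difference at each stage and stage 2 against the log midpoint of stages 1 and 3 in each line. Alternatives used DESeq2 1.42.0, RLE scaling, no filter, unique reads, a replicate block, and fits without single libraries or all numbered 3. The tables hold 1 sample each, with 0 columns left unused as belonging elsewhere.

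The members and gene lists were chosen with earlier results of these data known. Genes described singly were members of 13 lists (181 genes), the 4 highest by RPKM, up to 2 called members per contrast and direction, and those at the threshold, at the extremes of the ratio and with the lowest unique share. Every other gene described singly, among them 4 of the 6 members called at stage 2, was chosen after its values were seen. Other lists than those of cell cycle and of tapetum and pollen had edgeR calls between lines at stage 2 only: 2 MADS-box genes lower, 2 flavonoid and 2 jasmonate and wound genes higher in sterile buds. DESeq2 also called 3 MADS-box genes at stage 3 and 1 jasmonate and wound gene at stage 1. The lists of meristem, epidermis, photosynthesis, gibberellin and auxin, cell wall and growth, sugar, steroidal alkaloid and reference genes had 0 by edgeR and 0 to 4 each per stage at an unadjusted p under 0.05, and DESeq2 called 1 gene among them (meristem list, stage 3). Neither the deposited tables nor RefSeq (0 entries with such an identifier) pairs identifiers with names. List identifiers were recalled from the literature. The planned check of their names needed coding lengths, which the RefSeq table lacks, so it could not be completed and single genes are given by identifier only. No sequences are shown.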

Additional observations from a re-analysis of the deposited data

How the results depend on the processing

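Direction was stable for the members as a set: over the fits that left out 1 library each, their median line difference was 0.14 to 0.35, 0.69 to 1.01 and 0.48 to 1.10 at stages 1, 2 and 3. Counts of calls were not stable. Genes called between lines, 158, 384 and 100 in edgeR at stages 1, 2 and 3, became 425, 891 and 305 with no low-count filter and 293, 732 and 221 with the replicate block; stage 3 gave 179 with DESeq2 and 25 without all libraries numbered 3. Leaving out 1 library gave 54 to 221, 164 to 453 and 13 to 129. Members called were 1 at stage 1 with no filter, DESeq2 and the block, 25, 10, 19 and 21 at stage 2 with no filter, DESeq2, the block and without libraries numbered 3, and 6 and 1 at stage 3 with no filter and DESeq2. Leaving out 1 library gave 0 to 1, 1 to 16 and 0 members. With no filter, 1 of the members called at stage 2 and 1 of those at stage 3 were lower in sterile buds. Without fertile stage 1 replicate 2, the 1 member called at stage 1 was lower. The other members called between the lines were higher in sterile buds. Off the midpoint, 0 sterile genes became 66, 8 and 2 with no filter, DESeq2 and the block, and 0 to 10 without 1 library, and 4 members were called with no filter. The 2 fertile genes became 99, 5 and 28, 11 without libraries numbered 3, and 0 to 29 without 1 library. The difference between lines gave 1 gene with no filter.

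Replicate numbers were not taken as pairing the samples, since not every pair passed 0.1: residuals of same-numbered sterile and fertile libraries correlated at -0.03 and 0.22 (stage 1), 0.09, -0.02 and 0.15 (stage 2) and -0.03, 0.05 and 0.25 (stage 3). The 3 of 8 pairs over 0.1 were those numbered 3. The stage 1 values are not separate from each other, since residuals of a group of 2 fertile libraries are exact opposites. Whether libraries numbered 3 share a source of spread was not tested. By stage, 2 of 3 and 1 of 3 sterile libraries of stages 2 and 3 correlated best with their own number.

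The rule found 109 genes, but 68 with TMM-scaled CPM, 180 and 51 with minima of 10 and 40 CPM, 391 and 39 with ratios of 2 and 4, and 68 to 155 without 1 library, the lowest without sterile stage 3 replicate 1. Without libraries numbered 3 it found 136, of which 84 were members (61.8% of the 136).

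Of 36 line differences of 12 genes described singly, 8 changed sign in at least 1 alternative, none of them called. Without libraries numbered 3 the stage 1 values became 0.41 for Solyc01g068040, -0.046 for Solyc04g081240, 0.35 for Solyc08g062450 and 0.42 for Solyc10g051090. Over the fits without 1 library the stage 1 values ran from -0.34 to 0.30 for Solyc01g068040, from -0.22 to 0.76 for Solyc04g081240, from -1.07 to 0.023 for Solyc06g073750, from -2.27 to 0.19 for Solyc08g062450 and from -4.21 to 0.19 for Solyc10g051090. The stage 2 value of Solyc04g081240 ran from -0.24 to 0.57, and the stage 3 values of Solyc04g077210 and Solyc08g062450 from -0.85 to 1.54 and from -0.27 to 0.95. The cause of these changes was not tested. At the depth of these libraries a stage 3 group without reads allows up to 1.79 CPM in sterile and 1.61 CPM in fertile buds.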
